A study of Homo sapiens with 8 samples.

Results

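The NADPH oxidase NOX4, its partner CYBA and 8 antioxidant enzymes (SOD1, SOD2, SOD3, CAT, HMOX1, NQO1, TXNRD1 and PRDX1) are described here in human endothelial cells. These 10 genes of the 30386 in the deposited table were chosen by name, with results of the comparison known, so their levels and differences are given as a description. No p-value is given for them, and nothing is read from how many were called. They take 11 rows of the table, because SOD2 is listed under 2 gene identifiers. RNA sequencing of poly-A selected RNA compared 4 samples labelled iEC with 4 samples labelled iREC. The iEC are endothelial cells and the iREC are retinal endothelial cells from a matched differentiation, both made from the established human iPSC (induced pluripotent stem cell) line WTC-TJP1 and sampled at passage 1. No treatment is labelled in either group. The cell type entry of the labels is worded alike for both groups, and the group comes from the sample's title. All 8 samples come from that 1 line and carry the letters C, D, E and F within each group. The labels do not say whether the letters are separate differentiations or cultures, so p-values measure the spread between these samples, which may be technical.

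NADPH oxidases move electrons from NADPH to oxygen and are dedicated producers of reactive oxygen species. NOX4 is the form best known in endothelial cells; it needs CYBA, the membrane subunit shared by several oxidases, and releases mainly hydrogen peroxide, in an amount set largely by how much NOX4 is made. Superoxide dismutases turn superoxide into hydrogen peroxide, and catalase, peroxiredoxins and glutathione peroxidases remove that peroxide. HMOX1, NQO1 and TXNRD1 are textbook targets of the transcription factor NRF2 (gene NFE2L2), which KEAP1 holds in check and which binds antioxidant response elements in DNA.

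The start-site sequences of 4 of these genes are shown so that the genes can be seen beside their levels. Of the tested genes among the 10, NOX4 had the largest difference between the groups and CAT the highest log2 fold change. NQO1 and TXNRD1 are NRF2 targets with log2 fold changes of opposite sign. Each sequence is a RefSeq window on GRCh38.p14, written 5′ to 3′ on the gene's strand. The windows run from 250 bases before to 50 bases after an annotated start. They are chr11:89491326-89491625 (minus strand) for NOX4, chr16:69726511-69726810 (minus strand) for NQO1, chr11:34438684-34438983 (plus strand) for CAT and chr12:104215529-104215828 (plus strand) for TXNRD1. Capitals mark matches, on either strand, to the antioxidant response element core TGACNNNGC, the GC box GGGCGG or the CCAAT box.
NOX4: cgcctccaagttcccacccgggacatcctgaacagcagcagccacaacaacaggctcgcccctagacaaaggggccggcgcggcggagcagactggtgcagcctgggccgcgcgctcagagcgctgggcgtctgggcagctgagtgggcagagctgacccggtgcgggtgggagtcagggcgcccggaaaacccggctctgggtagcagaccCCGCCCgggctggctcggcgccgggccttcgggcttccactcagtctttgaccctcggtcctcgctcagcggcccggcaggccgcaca
NQO1: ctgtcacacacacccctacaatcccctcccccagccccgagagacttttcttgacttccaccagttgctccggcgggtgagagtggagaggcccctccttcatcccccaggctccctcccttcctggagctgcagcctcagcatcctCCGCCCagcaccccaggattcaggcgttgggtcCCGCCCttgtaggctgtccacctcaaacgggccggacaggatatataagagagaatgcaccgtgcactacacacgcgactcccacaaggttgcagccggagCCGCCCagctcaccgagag
CAT: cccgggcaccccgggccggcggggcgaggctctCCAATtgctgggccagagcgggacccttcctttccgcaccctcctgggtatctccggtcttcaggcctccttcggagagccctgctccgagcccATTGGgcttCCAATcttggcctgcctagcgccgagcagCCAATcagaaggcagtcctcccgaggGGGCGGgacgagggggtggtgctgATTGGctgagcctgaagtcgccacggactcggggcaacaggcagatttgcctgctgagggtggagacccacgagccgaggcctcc
TXNRD1: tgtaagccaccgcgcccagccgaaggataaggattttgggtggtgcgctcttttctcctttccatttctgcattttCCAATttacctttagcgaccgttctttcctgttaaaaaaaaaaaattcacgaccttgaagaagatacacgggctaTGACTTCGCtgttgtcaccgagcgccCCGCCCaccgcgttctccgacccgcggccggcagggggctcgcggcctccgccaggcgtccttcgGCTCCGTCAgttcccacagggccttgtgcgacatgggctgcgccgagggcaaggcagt
The table matched 7 of the 10 genes, in 13 windows; no window is given for SOD1, HMOX1 and PRDX1. The NOX4 window holds 1 GC box and 71.3% G and C; its other 2 windows hold 30.3% and 40.7%. The NQO1 window holds 3 GC boxes, and the CAT window 1 GC box and 5 CCAAT boxes. The TXNRD1 window holds 2 antioxidant response element cores, TGACTTCGC on the printed strand and GCTCCGTCA on the other. The other TXNRD1 window, chr12:104286782-104287081, holds 1 such core, and none of the 11 windows of the other 6 matched genes holds any. In the 4 printed windows no match overlapped another. Of all 35116 windows of this length, 13.3% hold the response element core, 45.0% the GC box and 34.6% the CCAAT box. Sequence outside the windows was not searched, so a window without a core does not show that its gene lacks one. The matches describe letters, and binding of a factor was not measured.

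Total counts ran from 14877502 to 16971865 per iEC sample and from 13739364 to 15987839 per iREC sample, and 3 reads, used as the detection floor, came to 0.177 to 0.214 CPM (the count scaled to a common library total after TMM normalization, the unit of all levels here). All 10 endothelial markers were detected in both groups, with summed levels of 7310 to 9400 CPM in iEC and 4290 to 9550 CPM in iREC; none of the lists separates retinal from other endothelial cells. Library F of the iREC stood apart: it had the lowest endothelial sum of the 8, and the highest sums of 10 mural and mesenchymal markers (4440 CPM, against 612 to 1240 CPM in the other iREC and 234 to 487 CPM in iEC) and of 6 epithelial markers (4910 CPM, against 301 to 1170 CPM elsewhere). Most of that epithelial sum was KRT8 (3010 CPM) and KRT18 (1530 CPM), which were at 145 to 597 CPM in iEC. CDH1 was at 81.3 CPM in iREC F and at most 5.12 CPM elsewhere, while EPCAM was at most 3.26 CPM in any sample. Myeloid markers summed to at most 3.92 CPM and erythroid markers to at most 0.214 CPM in any sample. In bulk samples, fewer cells of a type and less RNA per cell cannot be told apart.

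Among those of the 10 genes that passed the filter, NOX4 had the largest difference between the groups. NOX4 was 89.6-fold lower in iREC, near the floor of detection there, while SOD3 was detected above the floor only in 3 iREC libraries. CYBA, SOD1, SOD2, CAT, HMOX1, NQO1, TXNRD1 and PRDX1 were well expressed in both groups, and the ranges of the 4 iEC and 4 iREC samples overlapped for each of them. Of the 10 genes, 9 passed the filter on low counts, and their median log2 fold change (iREC over iEC) was -0.23, beside 0.02 over all 15330 genes tested. As a count only, 2 of the 9, NOX4 and NQO1, were among the genes that edgeR's quasi-likelihood test over the whole table called lower in iREC; it called 25.0% of all genes tested, 13.2% higher and 11.7% lower. The groups did not overlap for 1 of the 9, NOX4, beside 29.1% of all genes tested. SOD3 lay under the filter, and whether its lowest iREC library differed from iEC was not measurable, at 2 reads against at most 1.

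**Figure D1:**
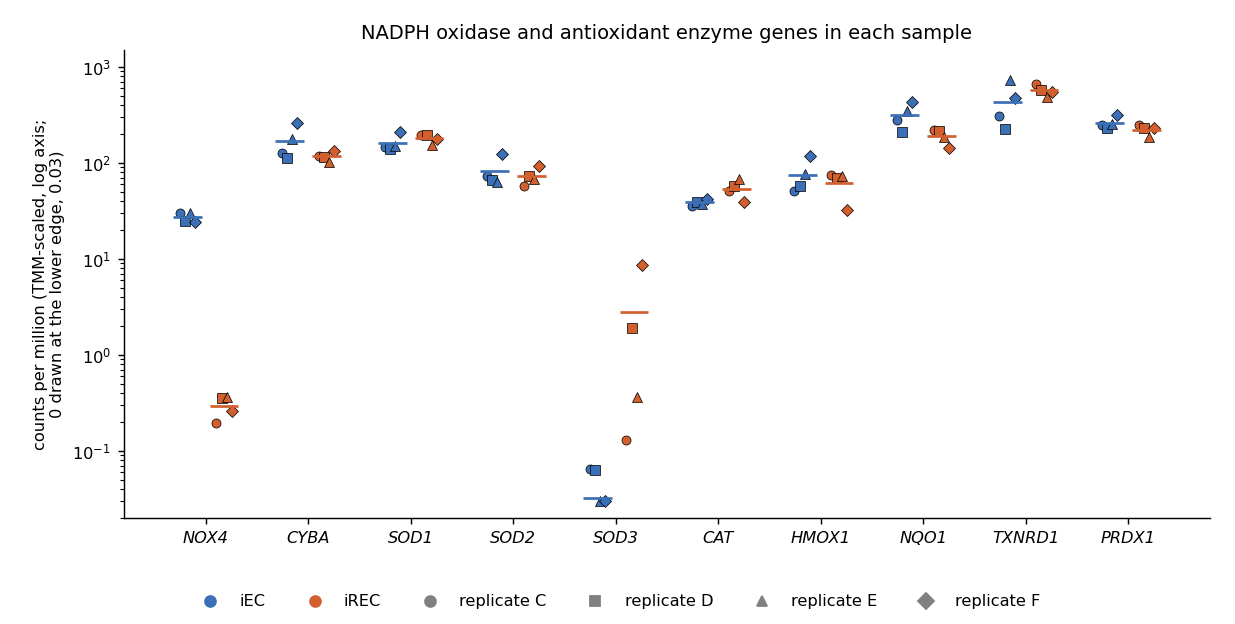
Level of each of the 10 genes in each sample, in CPM on a log axis; points are samples, shaped by replicate letter, and bars are group means. NOX4 sits at 24.0 to 30.1 CPM in iEC and 0.196 to 0.365 CPM in iREC, SOD3 is spread from 0.131 to 8.61 CPM in iREC, and the other 8 genes overlap between the groups.

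NOX4 (ENSG00000086991, chr11:89324356-89498187, minus strand, GRCh38) gave 457, 392, 510 and 336 reads in iEC C, D, E and F, and 3, 5, 6 and 4 reads in the iREC of the same letters. These were 29.7, 24.7, 30.1 and 24.0 CPM in iEC, and 0.196, 0.356, 0.365 and 0.261 in the iREC. Every iEC sample lay far above every iREC sample, and the iEC samples stayed within 1.25-fold of each other. The log2 fold change was -6.49 ± 0.25 (SE), and the authors' deposited table lists -6.54. Summed over libraries, 1695 reads in iEC against 18 in iREC gave a ratio of 92.6 after scaling, with an exact 95% interval of 58.4 to 157 that covers counting error only. The 15 other ways of fitting, with each sample left out in turn among them, gave log2 fold changes from -6.61 to -6.34.

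CYBA (ENSG00000051523, chr16:88643283-88651152, minus strand), the membrane partner of NOX4, stayed abundant in both groups. It measured 126, 111, 178 and 260 CPM in iEC C, D, E and F, and 118, 114, 103 and 134 CPM in iREC. The iREC samples fell within 1.3-fold of each other and overlapped the lower iEC samples, while iEC E and F were higher than the rest. The log2 fold change was -0.52 ± 0.25 (SE), and -0.24 without iEC F. Per length, mean CYBA was 50.3 FPKM in iEC and 34.5 FPKM in iREC, against 4.42 and 0.0476 FPKM for NOX4.

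The other oxidase genes were mostly near zero. Of 17 (other catalytic subunits, organisers, activators and RAC proteins), 15 were analysed here and 6 passed the filter; edgeR called 1 of the 6, lower in iREC, and the median log2 fold change of the 6 was -0.17. CYBB, the phagocyte catalytic subunit, had at most 1 read in any sample. The gene that fell was RAC2, the RAC form best known in blood cells, from 168 ± 83.9 CPM to 13.0 ± 9.47 (SD over 4 samples each; log2 fold change -3.69, adjusted p = 0.0019, edgeR). Its groups did not overlap, with 99.8 to 274 CPM in iEC and 4.11 to 25.6 CPM in iREC, while the 8 myeloid markers summed to 0.5 to 1.18 CPM in iEC and 2.28 to 3.92 CPM in iREC. RAC1, the widely expressed form, measured 313 to 398 CPM in iEC and 211 to 307 CPM in iREC, which was not called (log2 fold change -0.43, adjusted p = 0.0576, edgeR), and was called without iREC F (-0.54, adjusted p = 0.0183). NOX1, another catalytic subunit, lies outside the naming rule and was singled out after its values were seen: it had 129 reads (8.42 CPM) in iREC F and 0.13 to 1.28 CPM in the other 7 samples. The part of the markers that were high in iREC F in that value was not tested.

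SOD1 (ENSG00000142168, chr21:31659622-31668931, plus strand), the cytosolic copper-zinc dismutase, measured 146, 138, 149 and 211 CPM in iEC, and 197, 195, 153 and 175 CPM in iREC. iEC F was the highest of all 8 samples and the other 3 iEC samples were the lowest. Between the groups, the log2 fold change was 0.16 ± 0.16 (SE), and 0.32 ± 0.12 without iEC F, when the groups no longer overlapped. Leaving out a sample makes overlap rarer for any gene: with 1 sample left out, the groups did not overlap for 30.9% to 39.5% of all genes tested.

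SOD2 (ENSG00000112096, chr6:159669057-159745186, minus strand), the mitochondrial manganese dismutase, measured 73.3, 65.9, 62.9 and 125 CPM in iEC, and 57.6, 72.3, 67.4 and 93.1 CPM in iREC. Sample F was the highest in both groups, and the other 6 samples were intermixed. A log2 fold change of -0.17 ± 0.24 (SE) became 0.11 without iEC F, so no direction is given. The SOD2 row ENSG00000285441 (chr6:159679119-159762529), which shares 845 exon bases with the first, had 0 to 11 reads per sample and lay under the filter. SOD2 exons also share 298 bases with WTAP on the opposite strand; whether counting used the strand is not given in the sources used here, so reads of the pair could be mixed.

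SOD3 (ENSG00000109610, chr4:24789912-24800842, plus strand), the secreted dismutase of the extracellular matrix, had 1, 1, 0 and 0 reads in iEC, and 2, 27, 6 and 132 reads in iREC. Scaled to the libraries, the iREC values were 0.131, 1.92, 0.365 and 8.61 CPM. Library F held 79% of the iREC reads, and iREC C lay at or under the floor of 3 reads like every iEC sample. Against a floor of 3 reads per iEC library (0.194 CPM on average), the mean of iREC was at least 14.2-fold higher, and at least 4.16-fold higher without iREC F, for which the mean was 0.806 CPM. The iREC libraries ranked C, E, D, F for SOD3, and they did so for 6 of the 10 mural and mesenchymal markers (PDGFRB, CSPG4, COL1A1, COL3A1, LUM and DCN). They also did so for 4 of the 6 epithelial markers (CDH1, KRT8, KRT19 and KRT7) and 2 of the 5 pluripotency markers (LIN28A and PODXL). The order held for none of the 10 endothelial markers and for 7.87% of all genes tested. TAGLN, ACTA2, COL1A2 and RGS5 did not follow that order. As examples, DCN, a matrix proteoglycan, was at 0.588, 17.7, 4.2 and 133 CPM, and LUM, another, at 1.96, 61.7, 13.8 and 427 CPM, over iREC C to F. DCN was at 0 in 3 of the iEC samples and 0.0715 CPM in iEC F. The part of these markers in the SOD3 result was not tested.

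**Figure D2:**
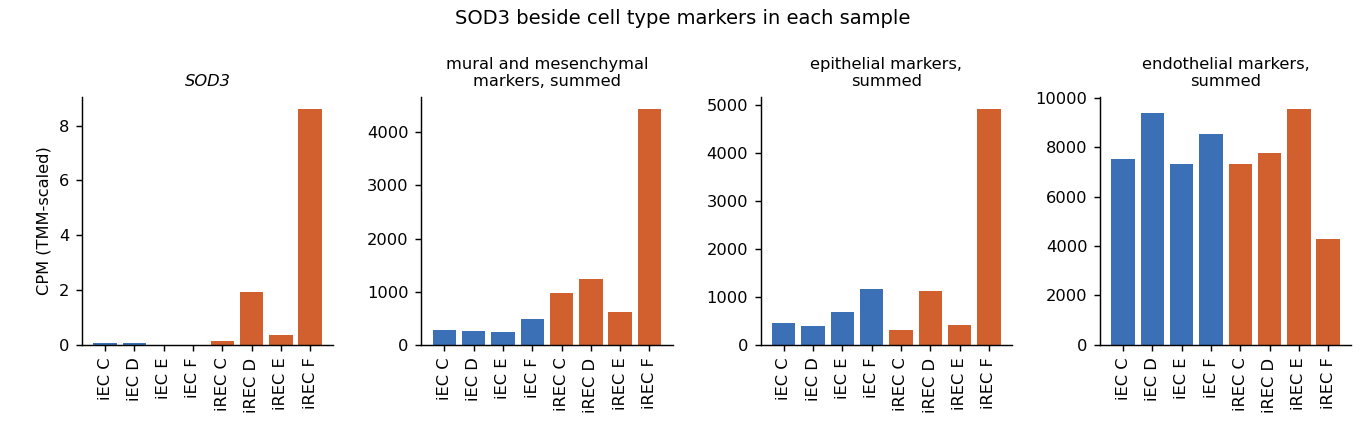
SOD3 and the summed level of 3 marker lists in each sample, in CPM on linear axes from 0; bars are single samples. iREC F has the highest SOD3 (8.61 CPM), mural and mesenchymal sum (4440 CPM) and epithelial sum (4910 CPM), and the lowest endothelial sum (4290 CPM).

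CAT (ENSG00000121691, chr11:34438925-34472062, plus strand), the haem enzyme of peroxisomes that splits hydrogen peroxide, measured 35.5, 39.4, 37.5 and 42.4 CPM in iEC, and 50.8, 56.7, 67.7 and 38.9 CPM in iREC. iREC C, D and E lay above every iEC sample, and iREC F lay among the iEC samples. With all samples the log2 fold change was 0.47 ± 0.17 (SE), and 0.59 ± 0.14 without iREC F, when the groups no longer overlapped. The iEC samples were within 1.19-fold of each other, the smallest spread of the 9 genes that passed the filter.

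PRDX1 (ENSG00000117450, chr1:45511036-45523047, minus strand), the abundant cytosolic peroxiredoxin that thioredoxin regenerates, measured 248, 229, 255 and 312 CPM in iEC, and 248, 228, 184 and 229 CPM in iREC. The groups overlapped; iEC F was the highest sample and iREC E the lowest. Its log2 fold change was -0.23 ± 0.14 (SE). PRDX1 exons share 379 bases with MMACHC on the opposite strand, which averaged 7.79 CPM.

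The glutathione peroxidase family, named for forms that remove peroxides with glutathione, went in both directions. Of the 7 genes of this list analysed here, the SOD1 copper chaperone CCS among them, 6 passed the filter and 4 were called by edgeR, 2 higher and 2 lower in iREC, with a median log2 fold change of -0.16. GPX3, the secreted form, rose from a mean of 2.2 ± 1.26 CPM to one of 361 ± 130 (SD, 4 samples each; log2 fold change 7.36 ± 0.52 SE, adjusted p = 3.78e-05, edgeR). Its iEC samples were at 2.08, 3.72, 0.65 and 2.36 CPM and its iREC samples at 207, 494, 304 and 439 CPM. GPX1, the main intracellular form, fell from 733, 647, 855 and 1420 CPM in iEC to 365, 444, 431 and 324 CPM in iREC (log2 fold change -1.22, adjusted p = 0.00666, edgeR). GPX7, found in the endoplasmic reticulum, rose (log2 fold change 1.26, adjusted p = 0.0234), and GPX8, of the same compartment, fell (-0.45, adjusted p = 0.0345). The GPX7 call was lost without iEC C, iREC C, iREC D or iREC E (adjusted p up to 0.0601), and the GPX8 call in 6 of 15 other fits (up to 0.0845).

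Of 14 tested genes in the list of thioredoxins, peroxiredoxins, sestrins and related genes, edgeR called 1 higher and 1 lower in iREC. The median log2 fold change was -0.30. SESN3, a sestrin induced by FOXO factors, averaged 9.56 ± 3.8 CPM in iEC and rose to 111 ± 43.5 in iREC (SD over 4 samples; log2 fold change 3.55, adjusted p = 0.000249, edgeR). TXN, the thioredoxin that TXNRD1 reduces, fell from 273 ± 58.8 to 160 ± 38.0 CPM (log2 fold change -0.77, adjusted p = 0.0287, edgeR), and the call was lost without iEC E, iEC F or iREC D, with adjusted p up to 0.0674. The other peroxiredoxins had log2 fold changes from -0.47 to -0.09 and were not called.

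TXNRD1 (ENSG00000198431, chr12:104215779-104350305, plus strand), the NADPH-driven enzyme that keeps thioredoxin reduced, had the widest iEC spread of the 9 genes that passed the filter. It measured 309, 224, 727 and 471 CPM in iEC, and 667, 576, 481 and 548 CPM in iREC. iEC E was the highest of all 8 samples, and the other 3 iEC samples were below every iREC sample. The log2 fold change was 0.39 ± 0.32 (SE), and 0.75 ± 0.26 without iEC E, when the groups no longer overlapped. The iEC samples spanned 3.24-fold and the iREC samples 1.39-fold.

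NQO1 (ENSG00000181019, chr16:69706996-69726951, minus strand), a cytosolic quinone reductase, measured 277, 211, 350 and 426 CPM in iEC, and 220, 213, 187 and 143 CPM in iREC. The groups overlapped through iEC D, which was lower than iREC C and D; without iEC D they did not overlap. Its log2 fold change was -0.73 ± 0.22 (SE), with means of 316 ± 92.4 and 191 ± 34.8 CPM (SD, n = 4 per group). NQO1 exons share 575 bases with the antisense gene AC092115.2, which was not analysed here.

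HMOX1 (ENSG00000100292, chr22:35380361-35394214, plus strand), the inducible haem oxygenase, measured 51.3, 57.8, 76.0 and 117 CPM in iEC, and 74.0, 69.0, 73.5 and 32.6 CPM in iREC. The highest value was iEC F and the lowest iREC F, and the other 6 samples lay between 51.3 and 76.0 CPM. The log2 fold change was -0.28 ± 0.32 (SE), -0.07 without iREC F and 0.01 without iEC F, so no direction is given.

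**Figure D3:**
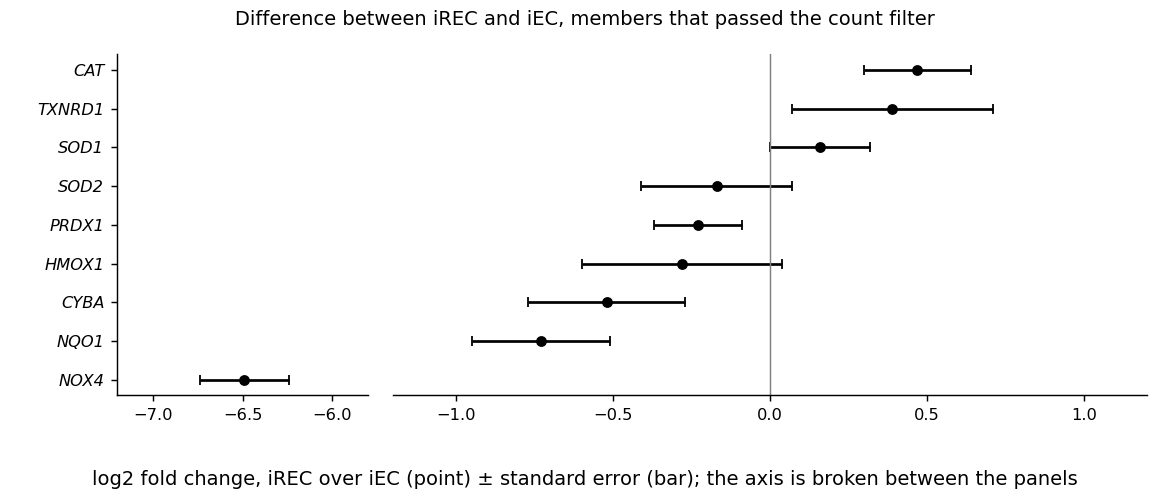
Difference between iREC and iEC for the 9 genes that passed the count filter, as log2 fold change (points) with its standard error (bars), on a broken axis. NOX4 stands at -6.49 and the other 8 lie between -0.73 (NQO1) and 0.47 (CAT).

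Of the 3 NRF2 targets, NQO1 thus had a log2 fold change below 0, TXNRD1 one above 0 that was little larger than its SE, and HMOX1 one smaller than its SE. NFE2L2, which encodes NRF2 itself, rose from 56.7 ± 5.19 CPM (SD, n = 4), with a highest sample of 61.3 CPM, to 114 ± 21.5 CPM, with a lowest sample of 94.8 CPM (log2 fold change 1.01 ± 0.15 SE, adjusted p = 0.00132, edgeR). MAFF, a small MAF protein that pairs with NRF2, fell from 98.6 ± 29.8 CPM to 13.2 ± 6.06 (SD over 4 samples; log2 fold change -2.90, adjusted p = 0.000565, edgeR). These 2 were the calls among 9 NRF2 regulators, whose median log2 fold change was -0.12. KEAP1 measured 91.5 ± 6.28 CPM in iEC against 91.2 ± 6.78 in iREC. BACH1, the repressor of HMOX1, measured 48.5 ± 7.26 and 46.3 ± 5.87 CPM. Neither KEAP1 nor BACH1 was called (adjusted p = 0.988 and 0.782, edgeR). NFE2L2 exons share 1054 bases with AC019080.1 on the same strand, which averaged 2.84 CPM.

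Beside HMOX1, the other haem and iron genes gave 3 calls of 7, 2 higher and 1 lower in iREC, with a median log2 fold change of 0.03. HMOX2, the constitutive haem oxygenase, fell from 169 ± 35.2 to 61.8 ± 15.9 CPM (log2 fold change -1.45, adjusted p = 0.0013, edgeR), although its exons share 228 bases with NMRAL1 on the opposite strand. The iron exporter SLC40A1 rose (log2 fold change 4.39, adjusted p = 0.00155, edgeR), as did FTH1, the ferritin heavy chain (1.24, adjusted p = 0.00381). FTH1 exons share 1267 bases with BEST1 on the opposite strand, which averaged 1.4 CPM. Beside NQO1, 8 other reductases and detoxifying enzymes gave 2 higher calls and 1 lower, with a median of 0.21. NQO2, the related quinone reductase, rose from 10.7 ± 2.31 to 37.7 ± 9.7 CPM (log2 fold change 1.82, adjusted p = 0.000577, edgeR), and AKR1B1, an aldose reductase, fell (-0.51, adjusted p = 0.0193), a call that was lost without iREC D (adjusted p = 0.063).

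Of 17 genes of glutathione synthesis, recycling and transfer, 5 were called higher and 3 lower, with a median log2 fold change of -0.08. SLC7A11, which imports cystine for glutathione, rose from 16.7, 11.0, 46.1 and 28.7 CPM to 203, 160, 132 and 101 CPM (log2 fold change 2.54, adjusted p = 0.00252, edgeR). GSTM4 rose (2.37, adjusted p = 0.000496), with reads that may be shared with its paralogs, while MGST2 (-1.31, adjusted p = 0.000394) and GSTO1 (-1.13, adjusted p = 0.00663) fell; all 3 are glutathione transferases. MGST2 exons share 252 bases with MAML3 on the opposite strand. GCLM, the modifier subunit of the first enzyme of glutathione synthesis, was at 94.1 ± 14.0 and 115 ± 34.5 CPM and was not called (adjusted p = 0.371).

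NOX4, NQO1 and TXNRD1 all draw on NADPH. Of 9 enzymes listed for its supply, 1 was called higher and 3 lower, with a median of -0.16. TKT, TALDO1 and PGLS are in that list but do not make NADPH themselves. NNT, the mitochondrial transhydrogenase, rose (log2 fold change 0.79, adjusted p = 0.00335, edgeR), and the cytosolic enzymes ME1 (-1.30, adjusted p = 0.00112) and IDH1 (-1.07, adjusted p = 0.0011) fell. Of 2 tested genes for other oxidant-producing enzymes, MAOA, the monoamine oxidase of mitochondria, rose from 3.03 ± 1.93 to 117 ± 42.5 CPM (log2 fold change 5.27, adjusted p = 0.000118, edgeR) and the other was called lower.

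Over the 9 lists, 78 of 95 genes were tested, and edgeR called 29 of them (37.2%), 15 higher and 14 lower in iREC, beside 25.0% of all genes tested (13.2% higher and 11.7% lower). Their median log2 fold change was -0.10, beside 0.02 over all genes tested. The lists were chosen with earlier results of these data known, so nothing is read from how many of their genes were called. The summed mural and mesenchymal markers were also higher in every iREC sample than in every iEC sample, which of the single markers held for TAGLN and DCN, while RGS5 was at 60.7 to 160 CPM in iEC and 29.1 to 70.2 CPM in iREC. The part of these markers in the calls was not tested. Without iREC F the calls numbered 16 higher and 17 lower.

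**Figure D4:**
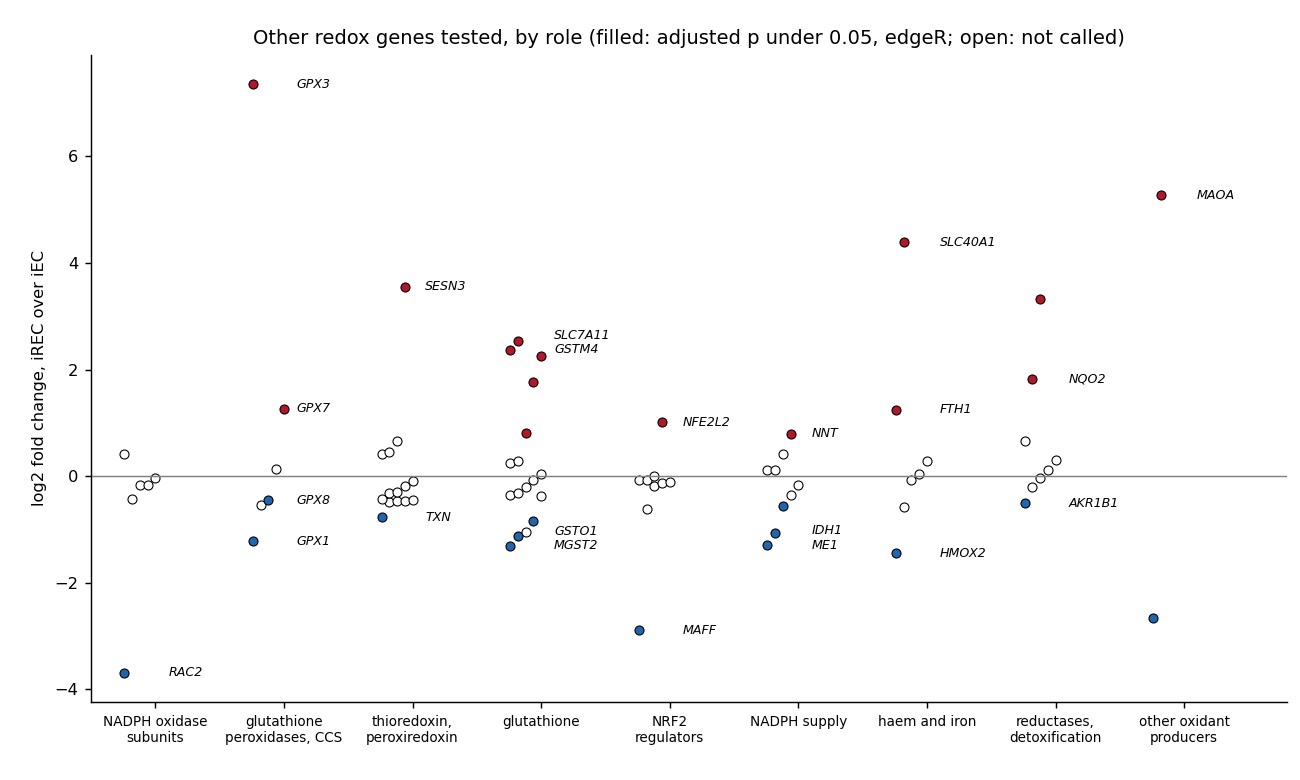
Log2 fold change (iREC over iEC) of the 78 tested genes of the 9 other redox lists, in columns by role; filled points were called by edgeR at an adjusted p under 0.05 and the genes chosen by the naming rule are labelled. Calls run from RAC2 (-3.69) to GPX3 (7.36), and 8 of the 9 lists hold calls in both directions.

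**Figure D5:**
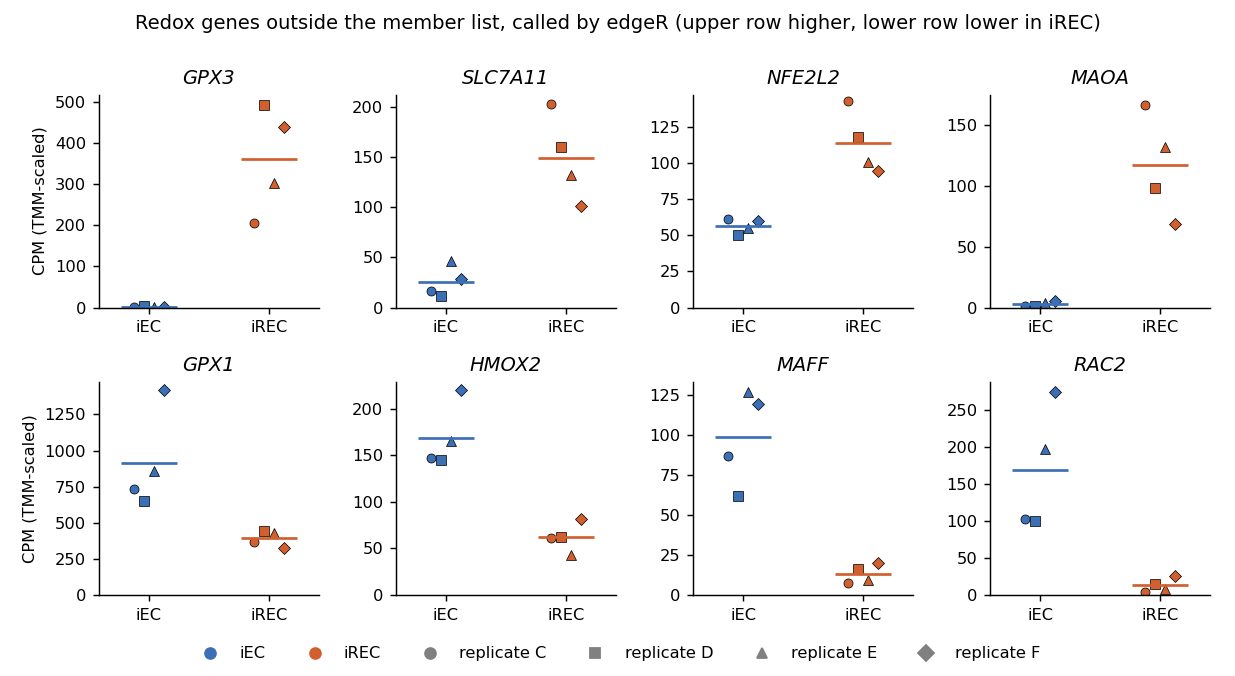
Level of 8 of the called redox genes in each sample, in CPM on linear axes from 0; points are samples, shaped by replicate letter, and bars are group means. In each panel the 4 iEC and 4 iREC samples do not overlap: GPX3, SLC7A11, NFE2L2 and MAOA are higher in iREC, and GPX1, HMOX2, MAFF and RAC2 lower.

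Levels can be compared between genes only per length, as deposited FPKM. PRDX1 led in both groups (171 FPKM in iEC and 144 FPKM in iREC), and in each its lowest sample was above the highest of the gene ranked next. In iEC the order went on with NQO1 (97 FPKM), SOD1 (79.5), TXNRD1 (64.4), CYBA (50.3) and HMOX1 (31.4), where each neighbouring pair overlapped, then CAT (10.7), SOD2 (4.96) and NOX4 (4.42), of which the last 2 overlapped. In iREC it went on with SOD1 (87.9 FPKM), TXNRD1 (83.5), NQO1 (57.8), CYBA (34.5), HMOX1 (25.5), CAT (14.7), SOD2 (4.34), SOD3 (1.29) and NOX4 (0.0476). There SOD1 and TXNRD1 overlapped, as did CYBA with HMOX1, HMOX1 with CAT, and SOD2 with SOD3. NOX4, level with SOD2 in iEC, was thus the lowest of the 10 in iREC, and NQO1, ranked next to PRDX1 in iEC, ranked below TXNRD1 in iREC. The FPKM of SOD2 is divided by 16493 exon bases, the longest of the 10 genes.

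Within the groups, some libraries were the highest or the lowest for many of the 10 genes. iEC F was the highest iEC sample for 7 of the 9 genes (CYBA, SOD1, SOD2, CAT, HMOX1, NQO1 and PRDX1), while it was the highest for 32.4% of all genes tested; with library size as the only scaling it was so for 6 of the 9 and 25.3% of all genes. iEC D was the lowest iEC sample for 5 of the 9 and 24.1% of all genes. In iREC, sample C was the highest for 5 of the 9 and 25.4% of all genes, but for 2 of the 9 with library size as the only scaling. iREC F was the lowest iREC sample for 3 of the 9 (CAT, HMOX1 and NQO1), a share close to its 34.2% of all genes. These are descriptions, since each library is shared by all genes.

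The genes most like the 2 extremes of the 10 were found by Pearson's r of log2 CPM over the 8 samples, among protein-coding genes that averaged 10 CPM or more. For NOX4 they were ANGPT2 (r = 0.998), CLEC2B (0.998) and ADGRG1 (0.996), over samples that form 2 groups. ANGPT2, an antagonist ligand of the TEK receptor, averaged 1770 CPM in iEC and 26.4 CPM in iREC. For CAT they included EPOR (r = 0.993) and CLDN5 (0.981). CLDN5, a claudin of endothelial tight junctions, measured 309, 400, 346 and 404 CPM in iEC, and 537, 789, 846 and 355 CPM in iREC, with iREC F among the iEC samples as for CAT.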

How the data were processed

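The data are RNA-seq counts of 8 samples, 4 iEC and 4 iREC. The submitters' processing notes name fastp, HISAT2 2.0.5 and hg38; the counting program and its strand setting are not given in the sources used here. Per the file headers, the deposited table gives, for each gene and sample, a raw count, a normalized signal, FPKM per sample, and the authors' log2 fold changes and p-values for iREC against iEC. Identifier, start and end of each of the 30386 genes were found in GENCODE 29. The deposited counts were used for tests, the deposited FPKM for levels between genes, and of the deposited log2 fold changes only that of NOX4 is printed.

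Counts were filtered by filterByExpr (15330 genes kept), scaled by TMM and compared by edgeR 4.0.16's quasi-likelihood F-test (R 4.3.3), with the group as sole factor. Calls rest on Benjamini-Hochberg adjusted p-values over the 15330 genes, under 0.05. The scripts were tested on simulated data. log2 CPM used a prior count of 2. Intervals and floors (3 counts) cover counting error only. Every row of the table names a gene.

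The members, the 9 lists of other redox genes and the marker lists were chosen with earlier results of these data known. Named are the 10 members; up to 2 higher and 2 lower calls per list that averaged 10 CPM or more in either group, by size of the log2 fold change; and NFE2L2, KEAP1, BACH1, CYBB, TXN, GCLM, GPX1 and RAC1. For the members of highest and lowest log2 fold change, the 3 genes with the highest r are named. Some genes that these rules give are not reported here. Alternatives were DESeq2 size factors, scaling by library size only, a fit without the filter, a stricter filter (a mean count of 50, and 1 CPM throughout a group), DESeq2 1.42.0, limma-voom (limma 3.58.1), the replicate letter as a block, and each sample left out. The SOD3 bound without iREC F was added after seeing the data.

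Of the marker lists, pluripotency genes summed to 266 to 800 CPM in iEC and 40.4 to 1070 CPM in iREC, and retinal neuron and pigment epithelium genes to at most 4.2 CPM. Nearly all of the pluripotency sum came from PODXL (251 to 789 CPM in iEC, 19.7 to 592 CPM in iREC) and LIN28A (8.43 to 480 CPM over all samples). POU5F1, NANOG and SOX2 were at most 1.16, 0.122 and 0.392 CPM in any sample.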

Additional observations from a re-analysis of the deposited data

Results flagged for a closer look

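In groups of 4, a sample was singled out where its gap to the nearest other sample, divided by the group's range, was above Dixon's 95% critical value. Of 72 groups tested, 5 were singled out, where about 3.6 are expected by chance (1 group in 20). iEC F was the sample in 4 of them. SOD1 was at 211 CPM in iEC F, against 138 to 149 CPM in the other iEC samples. SOD2 was at 125 CPM in iEC F, against 62.9 to 73.3 CPM. GSTO1, a glutathione transferase, was at 364 CPM in iEC F, against 194 to 216 CPM, and RAC1 at 398 CPM, against 313 to 322 CPM. HMOX1 was at 32.6 CPM in iREC F, against 69.0 to 74.0 CPM in the other iREC samples.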

How the results depend on the processing

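NOX4 kept its sign and size in all 15 alternatives (-6.61 to -6.34), and so did the signs of CYBA (-0.69 to -0.24), SOD1 (0.08 to 0.32), CAT (0.34 to 0.59), NQO1 (-0.89 to -0.55), TXNRD1 (0.17 to 0.75) and PRDX1 (-0.30 to -0.14), while SOD2 and HMOX1 changed sign without iEC F. Without each sample in turn, 2 to 4 of the 10 genes had groups that did not overlap, SOD3 among them each time. SOD3 lay under the filter, and its lowest iREC library, C, had 2 reads against at most 1 in iEC, a difference not measurable. Of the 9 genes tested, 1 to 3 had groups that did not overlap. NQO1 and PRDX1 joined NOX4 without iEC D, when the share over all genes tested went from 29.1% to 34.5%. Without iREC F that share was 39.5%. The SOD3 lower bound was 4.16 without iREC F, an alternative chosen after seeing the data. Of 22 called genes named outside the 10, 18 kept their calls in all 15 alternatives; AKR1B1, GPX7, GPX8 and TXN lost theirs in at least 1, and RAC1 was called with library size only, with the block and without iREC F. KEAP1 turned positive with library size only (0.0042) and with the stricter filter (0.02), and ranged from -0.06 to 0.04 without each sample in turn; BACH1 ranged from -0.15 to 0.02. Calls over all genes numbered 4991 with DESeq2, and 2660 to 4214 without each sample in turn. Same-letter samples deviated from their group means with r = 0.168, -0.079, 0.029 and 0.25 for C, D, E and F, and samples of unlike letters with r from -0.221 to 0.178. So few same-letter pairs cannot decide whether the letters pair the samples. With the replicate block, 3334 genes were called, and of the redox lists 16 higher and 13 lower. Depth limits NOX4 in iREC and SOD3 in iEC, both at a few reads per library.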
